A study of Mus musculus with 8 samples.

Results

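Macrophages are the resident phagocytes of bone and marrow, and 10 of their best known genes were followed here in cortical bone of WT and *Piezo1*-deficient mice. The genes were taken by name from the table of counts and not by a cut on any measured value, though earlier results of these data were known. They were *Csf1r*, *Cd68*, *Cx3cr1*, *Mrc1*, *Cd163*, *Siglec1*, *Vsig4* and the C1q chain genes *C1qa*, *C1qb* and *C1qc*. Of the 19201 genes in the table, 9 were members of this group, and all 9 passed the filter on low counts, as did 15318 genes in all. *Vsig4*, a complement receptor of tissue macrophages, was not analysed here.

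RNA-Seq counts came from cortical bone, ground whole, of 4 WT and 4 Prx1Cre; Piezo1fl/fl libraries, called *Piezo1*-deficient from here on, which carry the replicate numbers 1, 3, 4 and 5 in each genotype. All mice were of strain C57BL/6J and aged 6 weeks, and the labels give neither their sex nor whether the controls carried the floxed alleles. *Prx1*-driven Cre acts in limb mesenchyme, which gives rise to osteoblasts and chondrocytes, and spares the blood lineage of macrophages and osteoclasts. No label says whether a library is 1 animal, so p-values measure the spread between these libraries, which may be technical. *Piezo1*, the targeted gene, was at 194 to 214 CPM in WT and at 131 to 146 CPM in *Piezo1*-deficient libraries. Levels are given in CPM, the count of a gene relative to the library total after TMM scaling.

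In macrophages, the receptor CSF1R receives the growth factors CSF1 and IL-34, on which survival of the lineage depends, and monocyte precursors of osteoclasts need the same receptor to mature and fuse. C1q, the recognition protein that starts the classical complement pathway, is made mainly by macrophages and consists of A, B and C chains from separate genes. Bone holds several macrophage populations, among them those of the marrow, which line erythroblast islands and clear dying cells, and the osteal macrophages that lie beside osteoblasts.

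*Csf1r* and *Cd68* fell by about the same proportion in *Piezo1*-deficient bone, to 73.0% and 74.8% of the WT mean. The 3 C1q genes, *Mrc1*, *Cd163*, *Cx3cr1* and *Siglec1* did not pass the test. In bulk bone, fewer cells of a type and less RNA per cell cannot be told apart. Rose and fell are used for an adjusted p under 0.05 in the quasi-likelihood test of edgeR over 15318 genes. Of the 9 genes, 2 fell, 0 rose and 7 did neither, where 0.973% of all tested genes fell and 2.04% rose. The same 2 genes were those in which each *Piezo1*-deficient library lay below each WT library, which held for 5.27% of all tested genes. The log2 fold change was below 0 for 7 of the 9, with a median of -0.11, and the median of all tested genes was 0.0050.

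**Figure D1:**
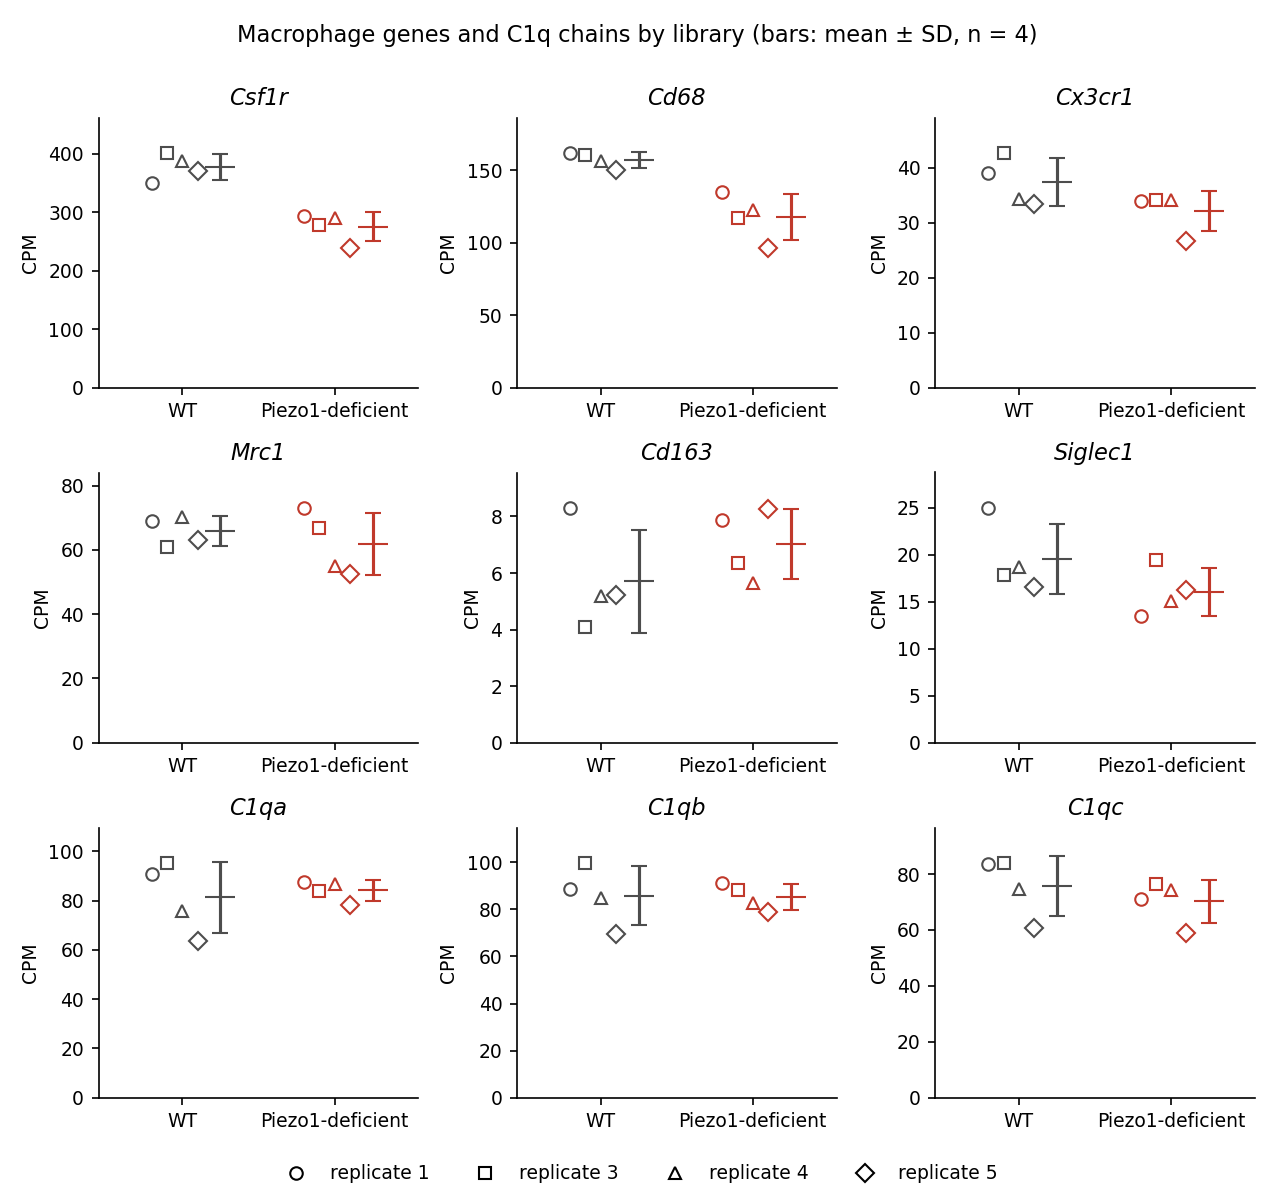
CPM of the 9 genes in each library (1 panel a gene, y axis from 0), with open symbols for libraries by replicate number and bars for mean and SD over 4 libraries. *Csf1r* and *Cd68* separate by genotype (*Csf1r* at 349.5 to 402 CPM in WT against 239 to 294 CPM), and the genotypes overlap for the other 7 genes.

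Per length of transcript, C1q was among the more abundant messages of the group. *Cd68* had the highest level, 128 ± 4.43 CPM per kb in WT (SD, n = 4). *Csf1r*, *C1qb* and *C1qa* followed at 80.2 ± 4.79, 78.8 ± 11.5 and 78.2 ± 14 CPM per kb (SD, n = 4), levels that did not differ beyond their spread. *C1qc* was at 63.0 ± 9.02 CPM per kb (SD, n = 4), below *C1qa* and *C1qb* in each of the 8 libraries. *Mrc1* and *Cx3cr1* came next, at 12.3 ± 0.847 and 10.03 ± 1.16 CPM per kb (SD, n = 4). *Siglec1* was at 3.06 ± 0.588 and *Cd163* at 1.27 ± 0.405 CPM per kb (SD, n = 4). Among 12374 tested genes with an annotated coding transcript, *Cd68* stood at the percentile 97.3 of this level over all 8 libraries, *C1qa* at 95.7 and *Cd163* at 14. In *Piezo1*-deficient bone *C1qa* (81.0 ± 4.196) and *C1qb* (78.4 ± 5.06) stood above *Csf1r* (58.5 ± 5.34 CPM per kb; SD, n = 4), with *C1qc* at 58.4 ± 6.47 CPM per kb.

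*Csf1r* had 4459, 5515, 5981 and 4731 counts in the WT libraries numbered 1, 3, 4 and 5, and 3474, 3768, 3957 and 2747 counts in the *Piezo1*-deficient replicates of the same numbers. On the CPM scale these were 349.5, 402, 387 and 369.6 in WT and 294, 278, 289.8 and 239 in *Piezo1*-deficient bone. The highest *Piezo1*-deficient library stayed below the lowest WT library, and *Piezo1*-deficient replicate 5 was the lowest of all. The mean fell from 377 ± 22.5 to 275 ± 25.1 CPM (SD, n = 4). The log2 fold change was -0.45 (SE 0.081, 95% interval -0.63 to -0.28, edgeR adjusted p = 0.0182). For the means alone the two-sided exact permutation p was 0.0286, the smallest that 70 arrangements allow. The fall lost its call without WT replicate 3, 4 or 5 (edgeR adjusted p = 0.0687, 0.0661 and 0.0621) and kept its size, with log2 fold changes of -0.49 to -0.40 over the 8 fits that left out 1 library.

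On mm9 *Csf1r* lies on the plus strand of chromosome 18 from 61265226 to 61291803. Its last 871 bases overlap *Hmgxb3* on the other strand, whose reads could not be told apart without strand. *Hmgxb3* was at 34.2 ± 3.60 CPM in WT and 34.2 ± 5.43 CPM in *Piezo1*-deficient bone (SD, n = 4), well below *Csf1r*.

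Neither ligand of the receptor passed the test. *Csf1*, which osteoblasts and stromal cells secrete, was at 117 to 135 CPM in WT and 81.1 to 138 CPM in *Piezo1*-deficient libraries (log2 fold change -0.25, 95% interval -0.55 to 0.05, edgeR adjusted p = 0.355). Its highest *Piezo1*-deficient value was replicate 1, and without that library *Csf1* was called lower (edgeR adjusted p = 0.0300, log2 fold change -0.41). *Il34*, the other ligand, was at 2.21 ± 0.783 CPM in WT and 3.83 ± 0.935 CPM in *Piezo1*-deficient bone (SD, n = 4), at an edgeR adjusted p = 0.154 and a log2 fold change of 0.78.

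Of 15 genes of CSF1 receptor and fractalkine signalling, 2 fell and none rose, with a median log2 fold change of -0.23. *Inpp5d*, a lipid phosphatase of blood cells that restrains PI3 kinase signals, fell from 94.5 ± 3.09 to 68.2 ± 4.04 CPM (SD, n = 4), at an edgeR adjusted p = 0.0052 and a log2 fold change of -0.47 and was called in every fit that left out 1 library. *Tyrobp*, an adaptor shared by macrophages and osteoclasts, was at 159 ± 20.8 CPM in WT and 127 ± 22.9 CPM in *Piezo1*-deficient bone (SD, n = 4; edgeR adjusted p = 0.223).

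*Cd68*, a glycoprotein of the lysosomes of macrophages and osteoclasts, had 2070, 2208, 2413 and 1922 counts in the WT libraries numbered 1, 3, 4 and 5, and 1595, 1589, 1671 and 1109 in the *Piezo1*-deficient ones. In CPM the WT libraries were at 162, 161, 156 and 150.1, and the *Piezo1*-deficient libraries at 135, 117, 122 and 96.4. The WT libraries lay close together, and *Piezo1*-deficient replicate 5 was again the lowest. The mean fell from 157 ± 5.45 to 118 ± 16.0 CPM (SD, n = 4), at an edgeR adjusted p = 0.0418 and a log2 fold change of -0.42 (SE 0.094). The 95% interval was -0.63 to -0.21, and the two-sided exact permutation p was 0.0286. The call for *Cd68* was lost without any 1 WT library or without *Piezo1*-deficient replicate 3 or 4 (adjusted p from 0.0712 to 0.118 in edgeR), while log2 fold changes stayed between -0.49 and -0.34. On mm9 *Cd68* spans 69477715 to 69479655 of chromosome 11 (minus strand), with 6 exons.

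*Cd68* and *Csf1r* held nearly the same ratio to each other in all 8 libraries. There were 0.400 to 0.464 *Cd68* counts for each *Csf1r* count in WT and 0.404 to 0.459 in *Piezo1*-deficient bone. Among 11570 genes with a mean of at least 5 CPM, *Cd68* was the one in place 11 by closeness to *Csf1r*, measured as the SD over 8 libraries of the log2 ratio (0.085). These places count *Csf1r* itself, which comes first. The 5 closest outside the group were *Cplx2*, *5031439G07Rik*, *Gnptab*, *Atp6v1c1* and *Phldb3*, with SDs of 0.052 to 0.078. *Atp6v1c1* encodes a subunit of the proton pump that acidifies lysosomes and the resorption space under osteoclasts, and *Gnptab* encodes part of the enzyme that tags lysosomal hydrolases. No role is given here for *Cplx2*, the closest, or for *5031439G07Rik* and *Phldb3*, so the 5 are not read as a common theme. Of the 5, *Phldb3* alone was not called (edgeR adjusted p = 0.0871). This closeness is a description of 8 libraries that share the contrast of genotypes.

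*Cx3cr1*, the fractalkine receptor of monocytes and some tissue macrophages, was at 39.0, 42.7, 34.4 and 33.4 CPM in the WT libraries numbered 1, 3, 4 and 5, and at 33.9, 34.1, 34.1 and 26.7 CPM in the *Piezo1*-deficient ones. The genotypes overlapped, and the 3 *Piezo1*-deficient libraries other than replicate 5 were almost equal. It spans 119957811 to 119977400 of chromosome 9 (minus strand) on mm9. The log2 fold change was -0.22 (SE 0.105, 95% interval -0.45 to 0.02, edgeR adjusted p = 0.308; two-sided exact permutation p = 0.200). Its ligand *Cx3cl1* was at 6.57 ± 1.22 CPM in WT and 5.68 ± 0.390 CPM in *Piezo1*-deficient bone (SD, n = 4; edgeR adjusted p = 0.522).

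The genes of the lectin and scavenger receptors, which mark resident and tissue-clearing macrophages, did not pass the test. *Mrc1*, the mannose receptor, was at 69.1, 61.0, 70.3 and 63.1 CPM in the WT libraries numbered 1, 3, 4 and 5, and at 73.1, 66.8, 55.0 and 52.4 CPM in the *Piezo1*-deficient ones. *Piezo1*-deficient libraries were both the highest and the lowest. *Mrc1* lies on the plus strand of chromosome 2 from 14151041 to 14253684 on mm9 and holds the microRNA gene *Mir511*. Its log2 fold change was -0.09 (SE 0.106, 95% interval -0.33 to 0.14, edgeR adjusted p = 0.698; two-sided exact permutation p = 0.486).

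*Siglec1*, a sialic acid receptor of marrow macrophages, was at 25.004, 17.8, 18.7 and 16.6 CPM in WT and 13.4, 19.5, 15.1 and 16.3 CPM in *Piezo1*-deficient libraries, in the order of replicates 1, 3, 4 and 5. The replicates numbered 1 held both the highest and the lowest value. *Siglec1* spans 130894956 to 130912501 of chromosome 2 (minus strand) on mm9. The log2 fold change was -0.28 (SE 0.1498, 95% interval -0.61 to 0.05, edgeR adjusted p = 0.354; two-sided exact permutation p = 0.200).

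*Cd163*, the receptor for haptoglobin bound to hemoglobin, rested on 56 to 106 counts a library and was the least abundant of the 9. It was at 8.31, 4.08, 5.18 and 5.23 CPM in the WT libraries numbered 1, 3, 4 and 5, and at 7.86, 6.35, 5.64 and 8.26 CPM in the *Piezo1*-deficient ones. Its mean was higher in *Piezo1*-deficient bone, at 123% of WT, and the genotypes overlapped. *Cd163* lies on the plus strand of chromosome 6 from 124254669 to 124280545 on mm9. The log2 fold change was 0.30 (SE 0.219, 95% interval -0.18 to 0.78, edgeR adjusted p = 0.512; two-sided exact permutation p = 0.257), the widest interval in the group.

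**Figure D2:**
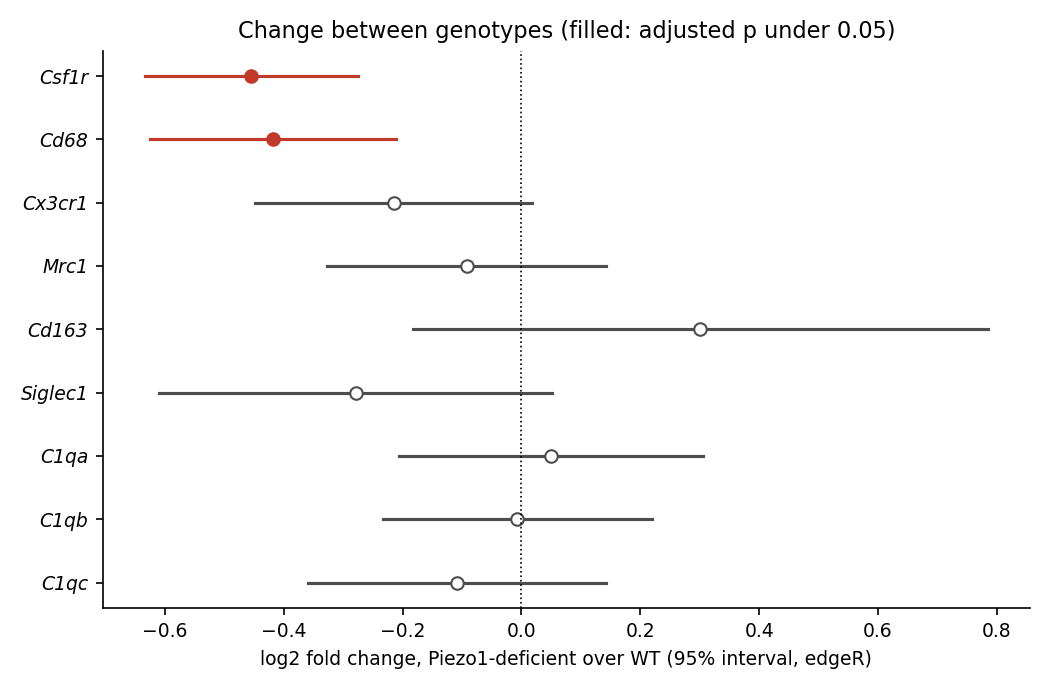
Log2 fold changes of the 9 genes, *Piezo1*-deficient over WT (x axis), with 95% intervals from edgeR and filled points at an adjusted p under 0.05. The intervals of *Csf1r* (-0.63 to -0.28) and *Cd68* (-0.63 to -0.21) lie below 0, and the other 7 include 0.

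The C1q genes were close to equal between the genotypes. *C1qa* was at 90.7, 95.4, 75.8 and 63.4 CPM in the WT libraries numbered 1, 3, 4 and 5, and at 87.7, 84.1, 86.9 and 78.1 CPM in the *Piezo1*-deficient ones. All *Piezo1*-deficient libraries lay inside the range of the WT libraries. The means were 81.3 ± 14.6 and 84.2 ± 4.36 CPM (SD, n = 4), and the log2 fold change of 0.05 had an SE of 0.116 and a 95% interval from -0.21 to 0.31 (edgeR adjusted p = 0.861).

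*C1qb* was at 88.9, 99.8, 84.6 and 69.6 CPM in WT and at 91.1, 88.4, 82.9 and 78.9 CPM in *Piezo1*-deficient libraries, in the same order. Here too the WT range enclosed all *Piezo1*-deficient values. The means were 85.7 ± 12.5 and 85.3 ± 5.51 CPM (SD, n = 4), and the log2 fold change of -0.01 had an SE of 0.102 and a 95% interval from -0.23 to 0.22 (edgeR adjusted p = 0.981).

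*C1qc* was at 83.6, 84.0, 74.5 and 60.9 CPM in WT and at 71.0, 76.5, 74.3 and 59.0 CPM in *Piezo1*-deficient libraries. The replicates numbered 5 were the lowest of each genotype. The means were 75.7 ± 10.8 and 70.2 ± 7.79 CPM (SD, n = 4), and the log2 fold change of -0.11 had an SE of 0.114 and a 95% interval from -0.36 to 0.14 (edgeR adjusted p = 0.667). Summed, the 3 genes were at 194 to 279 CPM in WT and at 216 to 249.8 CPM in *Piezo1*-deficient libraries. The two-sided exact permutation p was 0.771 for *C1qa*, 0.971 for *C1qb* and 0.486 for *C1qc*. As levels in percent of WT, the fits' 95% intervals run from 86.7% to 123.6% for *C1qa*, from 85.1% to 116.4% for *C1qb* and from 77.9% to 110.4% for *C1qc*. A fall to the 73.0% of *Csf1r* lies below each of these intervals, and the difference between the changes was not tested.

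Over the 8 libraries the ratio of *C1qa* to *C1qb* varied least, and the ratios with *C1qc* varied more. There were 0.896 to 1.049 *C1qa* counts and 0.749 to 0.940 *C1qc* counts for each *C1qb* count. For each *C1qc* count there were 1.02 to 1.14 *C1qa* counts in WT and 1.10 to 1.32 in *Piezo1*-deficient bone, with overlap. By the same measure of closeness, *C1qb*, *C1qa* and *C1qc* took places 1, 3 and 5 among 11570 genes against their own sum, which each of them helps to form. The 5 closest outside the group were *Ubox5*, *Gm9222*, *Itgb1bp1*, *Abhd12* and *Zfp46*, with SDs of 0.053 to 0.080, and none of these was called. The sum itself varied little over the 8 libraries (SD of its log2 value 0.165), so genes with nearly constant CPM are close to it.

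The 3 genes are neighbours. On mm9 *C1qb* lies from 136436044 to 136442102 on chromosome 4, *C1qc* from 136445719 to 136448980 and *C1qa* from 136451832 to 136454718, all on the minus strand and with 3 exons each. The cluster spans 18675 bases, and no other protein-coding gene lies in the gaps of 3616 and 2851 bases. No gene overlaps any of the 3 in GENCODE M1.

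The bases before the start sites of *C1qb* and *C1qc* are shown because their ratio stayed at 0.749 to 0.940, and those of *Cd68* because it fell. They come from RefSeq on GRCm38.p6, at chr4:136886201-136886450 and chr4:136892915-136893164 for the C1q genes and chr11:69666171-69666420 for *Cd68*, all read 5′ to 3′ on the minus strand. Each run ends at the base before the start. Capitals mark the PU box GAGGAA, the letters bound by the myeloid transcription factor PU.1, on either strand.
C1qb: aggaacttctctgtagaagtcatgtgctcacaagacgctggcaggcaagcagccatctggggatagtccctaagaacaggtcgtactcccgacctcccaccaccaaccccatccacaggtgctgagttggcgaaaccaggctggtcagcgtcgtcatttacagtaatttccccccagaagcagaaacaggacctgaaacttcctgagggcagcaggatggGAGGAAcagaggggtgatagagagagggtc
C1qc: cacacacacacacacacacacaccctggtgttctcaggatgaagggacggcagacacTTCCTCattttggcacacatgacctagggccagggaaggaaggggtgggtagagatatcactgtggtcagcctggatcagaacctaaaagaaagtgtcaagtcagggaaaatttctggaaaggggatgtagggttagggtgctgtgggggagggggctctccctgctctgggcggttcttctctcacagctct
Cd68: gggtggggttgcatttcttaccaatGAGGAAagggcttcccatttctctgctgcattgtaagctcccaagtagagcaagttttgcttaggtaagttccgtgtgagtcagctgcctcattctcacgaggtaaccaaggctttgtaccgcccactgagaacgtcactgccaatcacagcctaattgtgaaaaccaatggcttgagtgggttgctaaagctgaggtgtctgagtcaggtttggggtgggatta

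The PU box begins 30 bases before the start of *C1qb*, 193 before that of *C1qc*, where it reads on the other strand, and 225 before that of *Cd68*. Of the 10 genes, 7 had an entry among the promoters, and 5 of these held the letters on either strand within 250 bases before the start. The share among all 32851 promoters of this length was 23.3%. The letters TGCTGA, the core of the site that MAF proteins bind, occurred in *C1qb* alone of the 7 and in 16.1% of all promoters, and the motifs do not overlap there. The match describes letters and not binding. *Csf1r*, *C1qa* and *Siglec1* had no entry. *Spi1*, which encodes PU.1, fell from 69.2 ± 2.49 to 56.6 ± 2.17 CPM (SD, n = 4), at an edgeR adjusted p = 0.0294 and a log2 fold change of -0.29 (SE 0.059). Its WT libraries lay at 66.5 to 72.1 CPM and its *Piezo1*-deficient libraries at 53.7 to 58.7 CPM, without overlap. The call for *Spi1* was lost without WT replicate 3, 4 or 5 or *Piezo1*-deficient library 4 or 5 (edgeR adjusted p as high as 0.106).

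Set against *Csf1r*, the C1q genes were higher in every *Piezo1*-deficient library than in any WT library. For each *Csf1r* count there were 0.188 to 0.254 *C1qb* counts in WT and 0.286 to 0.330 in *Piezo1*-deficient bone. The ranges were 0.172 to 0.259 and 0.299 to 0.327 for *C1qa*, and 0.165 to 0.239 and 0.242 to 0.275 for *C1qc*. The log2 ratio of *C1qb* to *Csf1r* was -2.15 ± 0.20 in WT and -1.69 ± 0.09 in *Piezo1*-deficient bone (SD, n = 4). The ratio of *Cx3cr1* to *Csf1r* came out on the same side by the narrowest margin, at 0.0888 to 0.1117 in WT and 0.1118 to 0.123 in *Piezo1*-deficient bone. The ratios of *Mrc1*, *Siglec1* and *Cd163* to *Csf1r* overlapped between the genotypes. *Csf1r* itself separated the genotypes, so a gene that stayed level tends to separate by this ratio. How many of all genes do so was not counted. The ratios were chosen with earlier results known and are given without a test.

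**Figure D3:**
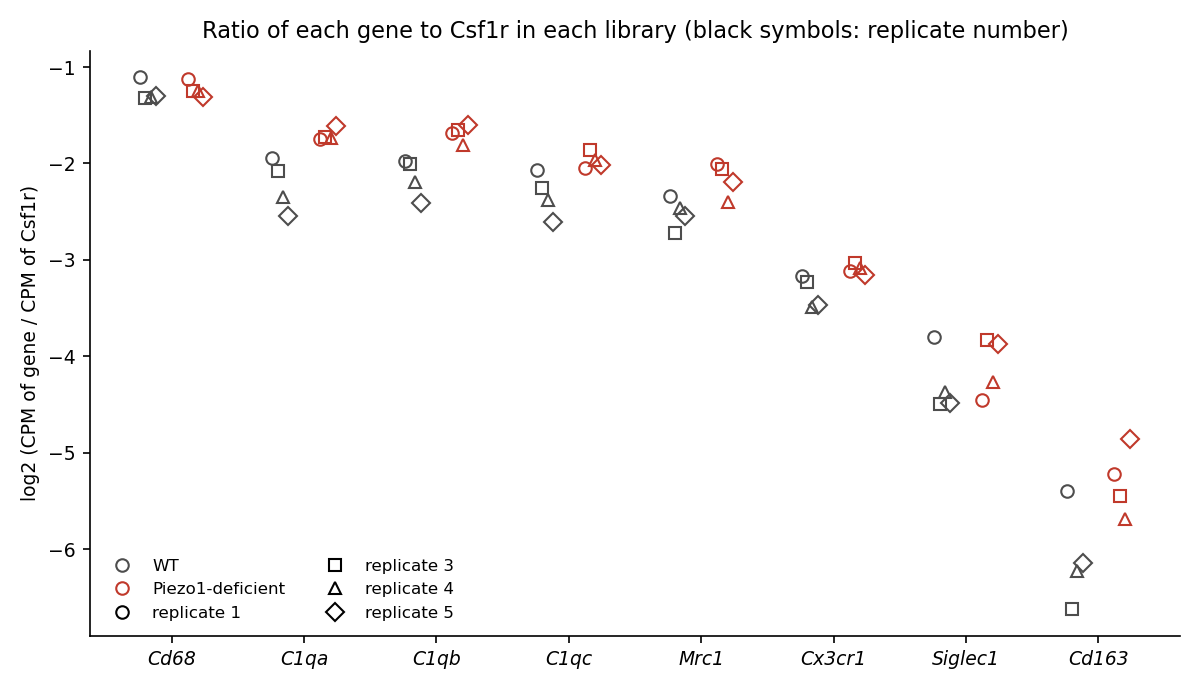
Log2 ratio of the CPM of each gene to that of *Csf1r* in each library, in grey for WT and red for *Piezo1*-deficient, with 1 symbol a replicate number. The ratio of *Cd68* is level between genotypes, and those of *C1qa*, *C1qb* and *C1qc* do not overlap (*C1qb* at a mean of -2.15 in WT and -1.69 in *Piezo1*-deficient bone). *Csf1r*, the divisor, itself separates by genotype.

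Osteoclasts share *Csf1r* and *Cd68* with macrophages, and genes of osteoclasts fell in the same libraries. Of 15 osteoclast markers, 6 fell and none rose, all 15 had a log2 fold change below 0, and the median was -0.43. *Itgb3*, the beta chain of the integrin by which osteoclasts attach to bone, was at 345, 353, 345 and 355 CPM in the WT libraries numbered 1, 3, 4 and 5, and at 266, 243, 263 and 263 CPM in the *Piezo1*-deficient ones. Both sets were narrow and far apart (log2 fold change -0.43, SE 0.059, edgeR adjusted p = 0.0052). *Siglec15*, a receptor of osteoclast fusion, fell from 30.2 ± 1.03 to 18.6 ± 2.56 CPM (SD, n = 4), at an edgeR adjusted p = 0.0065 and a log2 fold change of -0.70. *Mmp9*, the gelatinase of resorbing cells, fell from 2998 ± 133 to 1881 ± 429 CPM (SD, n = 4), at an edgeR adjusted p = 0.0294 and a log2 fold change of -0.67. The others that fell were the fusion gene *Ocstamp*, the receptor gene *Oscar* and the chloride transporter gene *Clcn7*. *Acp5*, the enzyme of TRAP staining and the most abundant marker, was at 3069 ± 276 and 2225 ± 402 CPM (SD, n = 4; edgeR adjusted p = 0.0796). By histology the study reports more osteoclasts, and in serum a higher marker of resorption, in male mice of this genotype and age. Those are other measures than RNA of cortical bone, and the difference in direction was not tested.

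The sum of the osteoclast markers was 9348 to 10562 CPM in WT and 5758 to 8217 CPM in *Piezo1*-deficient libraries, without overlap, and no marker was at 0. *Csf1r* kept its ratio to *Itgb3*, at 1.01 to 1.14 in WT and 0.909 to 1.146 in *Piezo1*-deficient bone, whereas *C1qb* went from 0.196 to 0.283 up to 0.30 to 0.364. *Itgb3* itself separated the genotypes, so a level gene tends to rise against it. Whether the falls of *Csf1r* and *Cd68* lay in osteoclasts, in their precursors or in macrophages was not tested. The number of osteoclast markers that fell ran from 2 to 8 when 1 library was left out, with *Itgb3* and *Siglec15* called each time. *Mmp9*, *Ocstamp* and *Oscar* lost their calls without WT replicate 3, 4 or 5 or *Piezo1*-deficient library 3 or 4, *Oscar* also without *Piezo1*-deficient replicate 5 or with only genes at a mean of 5 CPM or more tested, and *Clcn7* without any 1 library other than *Piezo1*-deficient replicate 1 (edgeR adjusted p as high as 0.153).

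A longer list of macrophage genes gave the same mixed picture. Of 56 tested, 2 fell and none rose, 41 had a log2 fold change below 0, and the median was -0.18. *Spi1*, described above, was among those that fell. *Adgre1*, the classical surface marker of mouse macrophages, was at 28.0 ± 4.43 and 26.8 ± 5.85 CPM (SD, n = 4), at an edgeR adjusted p = 0.871 and a log2 fold change of -0.06 (95% interval -0.41 to 0.28). *Mertk*, a receptor for the clearance of dead cells, was at 42.5 to 51.2 CPM in WT and 53.2 to 83.4 CPM in *Piezo1*-deficient libraries, which did not overlap. It did not pass the test (log2 fold change 0.44, edgeR adjusted p = 0.105). The sum of the list was 4721 to 5046 CPM in WT and 4094 to 4629 CPM in *Piezo1*-deficient bone, without overlap. Many of its genes are also active in osteoclasts, monocytes or neutrophils.

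**Figure D4:**
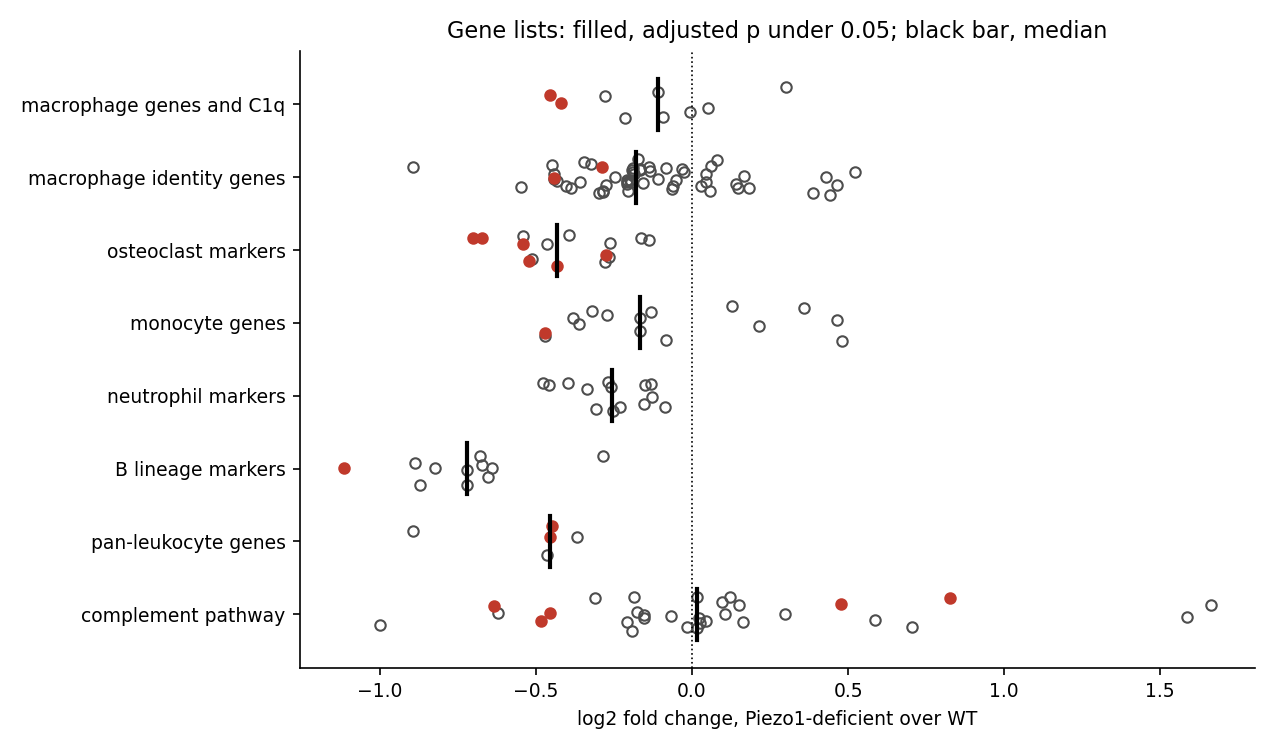
Log2 fold changes, *Piezo1*-deficient over WT (x axis), of single genes in 8 groups of genes, with filled red points at an adjusted p under 0.05 in edgeR and a black bar at the median; vertical scatter has no meaning. Medians are -0.11 for the 9 macrophage and C1q genes, -0.18 for 56 macrophage identity genes, -0.43 for 15 osteoclast markers and 0.01 for 31 complement genes.

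Genes shared by white blood cells were looked at beside these. Of 5, *Itgb2* and *Lcp1* fell, and all had a log2 fold change below 0. *Ptprc*, which encodes the surface phosphatase of all white blood cells, was at 109, 121, 149.7 and 145 CPM in the WT libraries numbered 1, 3, 4 and 5, and at 65.3, 117, 98.4 and 99.3 CPM in the *Piezo1*-deficient ones. The genotypes overlapped (log2 fold change -0.46, SE 0.162, edgeR adjusted p = 0.156). *Lcp1*, an actin-bundling protein of white blood cells, fell from 389 ± 16.1 to 285 ± 13.9 CPM (SD, n = 4), at an edgeR adjusted p = 0.0067 and a log2 fold change of -0.45. For each *Ptprc* count there were 2.55 to 3.31 *Csf1r* counts in WT and 2.37 to 4.49 in *Piezo1*-deficient bone, and 0.481 to 0.823 and 0.753 to 1.39 *C1qb* counts. Both ratios overlapped between the genotypes.

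Among 15 monocyte genes 1 fell and none rose, with a median log2 fold change of -0.17. It was *F13a1*, a clotting factor subunit made by monocytes and some macrophages, which went from 104 ± 9.49 to 74.8 ± 10.7 CPM (SD, n = 4), at an edgeR adjusted p = 0.0440 and a log2 fold change of -0.47. The call for *F13a1* was lost without any 1 WT library, without *Piezo1*-deficient replicate 3 or 5, and with only genes at a mean of 5 CPM or more tested (edgeR adjusted p as high as 0.135). All 14 neutrophil markers and all 11 B lineage markers had log2 fold changes below 0 (medians -0.26 and -0.72), and of these only *Rag1*, a B lineage marker, fell. The most abundant neutrophil marker, *S100a9*, was at 1839 ± 369 and 1486 ± 571 CPM (SD, n = 4). Of 9 dendritic cell markers *Itgax* alone fell, and of 8 markers each of T and NK cells and of erythroid cells none did.

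*Piezo1*-deficient replicate 1 stood apart among these cells. Its sums were the lowest of all libraries for neutrophil (2772 CPM), B lineage (209.9 CPM) and erythroid markers (1878 CPM), and it had the lowest *Ptprc*. Without it both *Csf1r* (log2 fold change -0.49, edgeR adjusted p = 0.0074) and *Cd68* (log2 fold change -0.49, edgeR adjusted p = 0.0078) were called, and the number of all genes that fell went from 149 to 271. *Piezo1*-deficient replicate 5 was the lowest of its genotype for 7 of the 9 genes, and WT replicate 5 was the lowest of its genotype for 6. Without *Piezo1*-deficient replicate 5, *Csf1r* and *Cd68* were still called, with log2 fold changes of -0.40 and -0.34.

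Markers of other tissues also separated the genotypes. The summed skeletal muscle markers were at 25.4 to 180.9 CPM in WT and 520.4 to 4982 CPM in *Piezo1*-deficient libraries, and those of growth plate chondrocytes at 3951 to 7576 and 496 to 628 CPM. Of 14 muscle markers 13 rose, and all 12 chondrocyte markers fell. Those of osteoblasts and osteocytes, of which *Bglap* and *Bglap2* rose and which hold the abundant collagen *Col1a1* (95776 ± 9737 and 130990.0 ± 22047 CPM; SD, n = 4), were at 183930.0 to 224110.0 and 227680.0 to 324900.0 CPM. Of 9 tendon and periosteal fibroblast markers *Thbs4*, *Cilp2*, *Dpt* and *Postn* rose, and of 5 adipocyte markers *Plin4* rose, while of 9 endothelial markers none rose or fell. The part of these tissues in the falls of *Csf1r* and *Cd68* was not tested. With library sizes taken without *Col1a1*, *Col1a2* and *Sparc* the falls of both genes were as large (log2 fold changes -0.47 and -0.43, edgeR adjusted p = 0.0150 and 0.0342).

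The rest of the complement pathway changed in both directions. Of 31 genes tested, 2 rose and 3 fell, and the median log2 fold change was 0.01. *C1s1*, a protease of the C1 complex that C1q activates, rose from 11.1 ± 1.597 to 19.7 ± 1.82 CPM (SD, n = 4), at an edgeR adjusted p = 0.0069 and a log2 fold change of 0.83 (SE 0.120). Its libraries were at 13.2, 11.4, 10.4 and 9.45 CPM in WT and at 20.0, 17.0, 20.8 and 21.0 CPM in *Piezo1*-deficient bone, and it was called in every fit that left out 1 library. *Serping1*, the inhibitor of the C1 proteases, rose from 66.4 ± 5.96 to 92.5 ± 10.02 CPM (SD, n = 4), at an edgeR adjusted p = 0.0234 and a log2 fold change of 0.48 (SE 0.092). The call for *Serping1* was lost without WT replicate 3 or 5 or *Piezo1*-deficient library 3 or 4 (edgeR adjusted p as high as 0.0886). *C1ra*, the partner protease of *C1s1*, was at 16.6 ± 2.96 and 20.4 ± 2.16 CPM (SD, n = 4), at an edgeR adjusted p = 0.259 and a log2 fold change of 0.30. Connective tissue cells are a known source of these proteases and of their inhibitor.

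The 3 complement genes that fell act at cell surfaces. *Itgax* and *Itgb2*, subunits of a complement receptor of myeloid cells, fell with log2 fold changes of -0.64 and -0.45 (edgeR adjusted p = 0.0234 and 0.0463). *Cd55*, which breaks up convertases on host cells, fell from 34.9 ± 3.77 to 24.97 ± 1.14 CPM (SD, n = 4), at an edgeR adjusted p = 0.0198 and a log2 fold change of -0.48. *Itgax* and *Cd55* lost their calls without WT replicate 4 or 5 or *Piezo1*-deficient library 4, *Itgax* also without WT replicate 3. *Itgb2* lost it without any 1 of WT replicates 3, 4 and 5 and *Piezo1*-deficient replicates 3, 4 and 5, and with only genes at a mean of 5 CPM or more tested (edgeR adjusted p as high as 0.146 for the 3 genes). *Cd93*, a surface glycoprotein of myeloid and endothelial cells once taken for a C1q receptor, was at 181 ± 22.6 and 159 ± 18.2 CPM (SD, n = 4; edgeR adjusted p = 0.389).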

How the data were processed

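RNA-Seq counts of 8 cortical bone libraries, 4 a genotype, were read from 1 deposited table of 19201 genes. Per the file headers and values these are raw counts, which the authors deposited beside their own log2 fold changes, p-values and FDR, none of which was used. Reads were mapped to mm9 with TopHat and quantified with Cufflinks in the study's methods, while HISAT2 and GRCm38 stand in the processing notes of the submitters. The tool that counted reads is not given in the sources used here, and the library kit is a TruSeq RNA kit. Gene positions are from GENCODE M1 (mm9), and lengths are those of the longest coding transcript there.

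Counts were fitted in edgeR 4.0.16 (R 4.3.3): filterByExpr, TMM factors of 0.888 to 1.07, and the quasi-likelihood F test, with Benjamini-Hochberg adjustment over 15318 genes. The SE is the absolute log2 fold change over the square root of F. Total counts of 11963536 to 14536106 per library set the precision. Single genes were also compared by two-sided exact permutation of 4 against 4 (scipy 1.17.1). Cuffdiff, which the study used on FPKM, was not run because the table holds counts.

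The genes and lists were chosen with earlier results of these data known. Named were the 9 genes, and from the macrophage, complement, signalling and monocyte lists up to 6 called genes of highest CPM (the 2 most abundant where none was called), from marker lists the most abundant gene, with *Ptprc* and *Piezo1*. Some genes under this rule are not reported here. *Csf1*, *Il34*, *Cx3cl1*, *Adgre1*, *Mertk*, *Tyrobp*, *C1ra*, *Cd93*, *Hmgxb3* and the osteoclast genes other than *Acp5* fall outside this rule and were picked with their values in view, as were ratios to *Itgb3*. Alternatives were DESeq2 size factors, the DESeq2 1.42.0 Wald test, other filters, library sizes without 3 abundant genes, a replicate block and leaving out each library.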

Additional observations from a re-analysis of the deposited data

Results flagged for a closer look

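In 5 of 96 pairs of a named gene and a genotype, 1 of the 4 libraries lay apart from the others, by Dixon's test of the gap to the nearest neighbour over the range. Chance gives about 1 in 20. *Cx3cr1* was at 26.7 CPM in *Piezo1*-deficient replicate 5. *Mertk* was at 83.4 CPM in *Piezo1*-deficient replicate 1. *Itgb3* was at 243 CPM in *Piezo1*-deficient replicate 3. *Cd55* was at 29.3 CPM in WT replicate 3. *Oscar* was at 34.3 CPM in WT replicate 1.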

How the results depend on the processing

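*Csf1r* and *Cd68* kept their direction under all 14 alternatives (edgeR or DESeq2 adjusted p from 1.16e-05 to 0.0687 and from 0.0016 to 0.118), and both were called under the 6 that kept all libraries. The number of the 9 genes that fell was 0 to 2 when 1 library was left out. Over all genes 313 rose and 149 fell, against 592 and 358 in the DESeq2 Wald test, and leaving out 1 library gave 71 to 415 and 49 to 271. Of the 56 macrophage identity genes, 2 fell, against 6 in the Wald test, 7 with the replicate block and 0 to 4 when 1 library was left out. The log2 fold changes near 0 changed sign when 1 library was left out, and the cause was not tested. They ran from -0.053 to 0.14 for *C1qa*, from -0.096 to 0.074 for *C1qb*, from -0.23 to 0.0050 for *Adgre1*, from -0.093 to 0.028 for *Pecam1* and from -0.13 to 0.46 for *Hba-a1*.

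With a replicate block 506 genes rose and 320 fell, and *C1qb* had a log2 fold change of 0.0013. Among named genes, *Acp5*, *Fabp4*, *Ptprc*, *Mertk* and *Tyrobp* gained a call. Deviations of same-numbered libraries correlated at 0.33, -0.22, 0.17 and -0.0095, and those of other pairs at -0.28 to 0.27. So few values cannot tell whether the numbers pair the samples, and the labels do not say.

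Low counts limit the values of *Cd163* and *Il34*.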
